A study of Homo sapiens with 4 samples.

Results

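The zinc finger genes of chromosome 19 were described here as the genes whose symbol is ZNF followed by a number, whose annotated exons all lie on chromosome 19, and whose counts summed over the 4 libraries reached 200. Of 241 such genes with any or no count, 172 met this floor and 69 did not, among 56271 genes in the count table, of which 14974 met the same floor and were tested. The members were therefore selected on their summed count, and their presence above the floor is no finding. All 172 were protein-coding in GENCODE 44 at the same position and strand.

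The libraries were mRNA-sequencing of SKBR3 cells, a HER2-positive human breast cancer line, in 2 groups of 2. Control cells carried a lentiviral FUW vector, with a ubiquitin C promoter, that expresses eGFP. VIRMA-overexpressing cells carried the same vector with HA-tagged full-length VIRMA joined to eGFP through a p2A peptide. In both groups eGFP-positive cells were sorted and expanded as a population, with no clone described, and the methods call the libraries biological duplicates, so the p-values measure the spread between these duplicates. The labels give all 4 samples a low-oxygen culture text that ends in a protein lysate, so it is unclear whether oxygen was low when the RNA was taken, and both groups were treated as having had the same oxygen. VIRMA holds together the complex that writes m6A, the methylation of adenosines inside mRNA, and the comparison asked which transcripts differ in level when full-length VIRMA is raised.

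Chromosome 19 carries the largest collection of zinc finger genes in the human genome, in clusters that grew by tandem duplication. Each classical finger folds around a zinc ion held by a pair of cysteines and a pair of histidines, and the residues between them contact DNA, so an array of fingers reads a long site. Most members also carry an amino-terminal KRAB domain, which binds TRIM28 (KAP1), a scaffold that brings the histone methyltransferase SETDB1, heterochromatin protein 1 and DNA methylation machinery to the bound site, often a transposable element.

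The repeat that defines the family is shown for the members on which the expression results below turn: ZNF841, ZNF550, ZNF285 and ZNF333, which had the 4 largest rises, ZNF551, which had the largest fall, and ZNF296, a highly expressed member that fell. Each line is 1 finger unit of 84 bases read from GRCh38 on the coding strand, 5′ to 3′, with the codons of the zinc-binding cysteines and histidines in capitals.
ZNF841, chr19:52066844-52066927, strand -: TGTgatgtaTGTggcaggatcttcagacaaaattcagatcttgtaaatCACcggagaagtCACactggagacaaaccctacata
ZNF550, chr19:57547548-57547631, strand -: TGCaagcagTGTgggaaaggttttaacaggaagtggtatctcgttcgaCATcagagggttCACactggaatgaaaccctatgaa
ZNF285, chr19:44387462-44387545, strand -: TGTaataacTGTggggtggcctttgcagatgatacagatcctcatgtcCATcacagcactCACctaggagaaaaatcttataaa
ZNF333, chr19:14718429-14718512, strand +: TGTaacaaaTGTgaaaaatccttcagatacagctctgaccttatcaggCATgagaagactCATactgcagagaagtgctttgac
ZNF551, chr19:57687032-57687115, strand +: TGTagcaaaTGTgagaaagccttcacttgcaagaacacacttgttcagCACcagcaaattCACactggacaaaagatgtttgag
ZNF296, chr19:45072249-45072332, strand -: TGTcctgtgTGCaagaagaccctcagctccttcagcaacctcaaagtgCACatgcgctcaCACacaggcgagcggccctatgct
Outside the capital codons the units differed widely. Pairwise identity over the 84 bases ranged from 40.5% between ZNF285 and ZNF296 to 63.1% between ZNF333 and ZNF551. Members held 1 to 26 fingers, with a median of 12.

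Promoters were compared because many members moved in 1 direction. The 4 windows below are 300 bases spanning an annotated start (RefSeq, GRCh38.p14), 5′ to 3′ on the strand of the gene, with matches to GGGCGGG on either strand, the core of an SP/KLF-type GC box, in capitals.
ZNF841, chr19:52095716-52096015, strand -: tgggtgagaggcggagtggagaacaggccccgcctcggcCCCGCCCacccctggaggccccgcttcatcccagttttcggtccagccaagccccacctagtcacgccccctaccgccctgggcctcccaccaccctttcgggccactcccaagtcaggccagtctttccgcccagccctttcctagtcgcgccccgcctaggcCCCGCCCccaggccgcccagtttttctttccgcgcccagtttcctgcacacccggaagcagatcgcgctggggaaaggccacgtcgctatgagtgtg
ZNF550, chr19:57559814-57560113, strand -: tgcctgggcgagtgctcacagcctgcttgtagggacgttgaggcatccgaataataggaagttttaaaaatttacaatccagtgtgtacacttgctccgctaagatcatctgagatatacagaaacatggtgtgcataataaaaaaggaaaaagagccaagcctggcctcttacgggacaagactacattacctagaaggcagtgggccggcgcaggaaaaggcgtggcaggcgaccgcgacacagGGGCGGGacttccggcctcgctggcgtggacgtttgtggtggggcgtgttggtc
ZNF551, chr19:57681727-57682026, strand +: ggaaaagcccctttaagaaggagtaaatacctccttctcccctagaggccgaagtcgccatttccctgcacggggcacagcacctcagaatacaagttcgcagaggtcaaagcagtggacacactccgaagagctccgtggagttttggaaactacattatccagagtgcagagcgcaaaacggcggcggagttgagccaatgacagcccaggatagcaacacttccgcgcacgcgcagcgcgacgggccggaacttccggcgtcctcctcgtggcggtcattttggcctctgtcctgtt
ZNF296, chr19:45076429-45076728, strand -: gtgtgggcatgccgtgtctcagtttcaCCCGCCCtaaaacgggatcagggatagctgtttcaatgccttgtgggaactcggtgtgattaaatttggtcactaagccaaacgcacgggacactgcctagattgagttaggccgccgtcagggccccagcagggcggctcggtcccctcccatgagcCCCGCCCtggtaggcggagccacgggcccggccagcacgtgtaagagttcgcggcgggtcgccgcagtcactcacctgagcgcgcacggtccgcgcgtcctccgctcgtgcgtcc
The windows of ZNF841, ZNF550 and ZNF296 held the motif and that of ZNF551 did not, and a second ZNF841 window, at 52094222 to 52094521 with 6 CpG, did not hold it. Among these genes it was present in members that rose and in one that fell. In all, 156 members had 191 windows in the RefSeq table, and 48.7% of them held GGGCGGG on either strand, against 33.1% of all 35116 windows of that length. CpG content differed in the same direction, with a median of 22 CpG in member windows and 14 in all windows, and the motif itself holds a CpG. The sets are unlike, since all windows covered 27305 genes of any type or level, while members were protein-coding and above the count floor. Whether the differences in motifs and CpG come from that selection was not tested. The median log2 fold change was 0.28 in the 88 members with GGGCGGG and 0.28 in the 68 without it. Other motifs were rare on either strand. TGACGTCA, the CRE motif, was in 4.19% of member windows and 1.85% of all windows, TGATGNAA, an ATF4-type element, in 1.57% and 3.62%, TCGCGAGA in 1.05% and 1.15%, and the NRF1 motif in 2.62% and 1.24%. Such matches describe letters in a window and not bound sites.

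The libraries held 81446932 to 86375474 counts. Mitochondrial genes took 11.4% and 11.6% of them in the control libraries and 12.8% and 12.8% in the VIRMA libraries. VIRMA, listed as KIAA1429, had 710 and 682 counts in the control libraries and 3437 and 3460 in the VIRMA libraries. It was 4.83-fold higher (log2 fold change 2.27, SE 0.0662, adjusted p = 9.59e-17), as the labels require, although endogenous and introduced transcripts were counted together. All 6 SKBR3 markers checked were present at a CPM (each gene's share of the library's counts on a common scale, with library sizes adjusted by edgeR's TMM method) of 143 to 8350, but they summed to 26364 and 26020 CPM in the control libraries and 23199 and 23404 in the VIRMA libraries, with 4 of 6 higher in both controls and 2 in both VIRMA libraries. ESR1 and CDH1, which are low in this line, summed to 0.42 and 0.53 CPM in control and 0.75 and 0.92 in VIRMA libraries. Markers of other cell types also moved with the groups. Erythroid markers summed to 28.3 and 20.6 CPM in the control libraries and 0.58 and 0.39 in the VIRMA libraries, with 9 of 11 genes higher in both controls and GYPB at 0. HBB made up most of that sum in control, with 25.8 and 18.6 CPM against 0 counts in both VIRMA libraries. Leukocyte markers summed to 31.5 and 28.9 against 15.9 and 15.9, with 7 of 12 higher in both controls, 2 higher in both VIRMA libraries and MS4A1 at 0, and CSF1R made up most of that sum, with 27.6 and 26.3 CPM against 13.8 and 13.8. Stromal markers summed to 21.4 and 19.7 against 16.3 and 17.7, with 4 of 8 higher in both controls, 1 higher in both VIRMA libraries and none at 0 in every library. The part of these markers and of the mitochondrial share in the results below was not tested, and fewer cells of a type cannot be told apart from less RNA per cell in bulk libraries.

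Members were expressed at low levels. Mean RPKM (counts divided by exonic length and library size) ranged from 0.0775 to 32.0 with a median of 1.14, against a median of 3.24 over all genes tested, and 100 members exceeded an RPKM of 1 in at least 2 libraries. The 5 highest mean RPKM belonged to ZNF787 (32.0), ZNF428 (31.0), ZNF296 (21.9), ZNF579 (15.99) and ZNF524 (15.8). None of these 5 was found to hold a KRAB domain. At the floor, ZNF582 with 207 summed counts and ZNF583 with 210 were just inside, and ZNF850 with 194 and ZNF699 with 150 just outside. The members took 0.158% of all counts in both control libraries and 0.191% in both VIRMA libraries.

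The genes below the floor were not spread evenly along the chromosome. From ZNF737, which starts at base 20535825, to ZNF254, which ends at base 24129961 (hg38), 28 consecutive ZNF genes had 20 counts in all out of 336154622. They had 11 and 5 counts in the control libraries and 1 and 3 in the VIRMA libraries, and 15 of the 28 had 0 counts. The stretch was picked as the longest run of consecutive ZNF genes with 3 counts or fewer each. The highest total of 3 was therefore fixed by that rule. A count of 0 over a library allows up to 3 counts by counting error alone, which is a limit for a single library. This stretch includes ZNF91, which represses SVA retrotransposons and had 1 count, ZNF43, with 1 count, and ZNF208, with 3. Directly before it, ZNF90 had 247 and 238 counts in the control libraries and 294 and 247 in the VIRMA libraries, and ZNF486 had 542 and 623 against 514 and 517. Directly after it, ZNF536 had 8 counts over the 4 libraries and ZNF507 had 4491. Of the 156 genes of any name inside the stretch, 150 had 3 counts or fewer, but these include the 28 picked for that. In the whole count table, 33976 of 56271 genes had any count and 14974 reached the floor, so low counts are common elsewhere too. Inside the stretch 1 gene reached the floor, RPSAP58, with 10452 counts. RPSAP58 is a processed copy of a ribosomal protein gene, and whether its reads come from this copy was not tested. No fold change was computed for the 28 genes, and why they lacked counts was not tested.

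**Figure D1:**
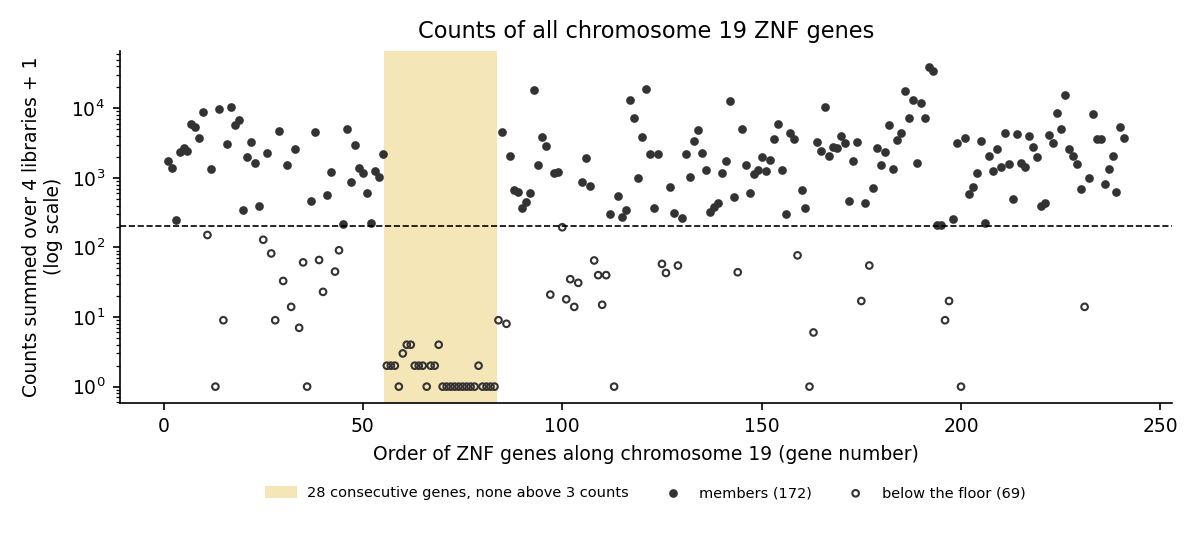
Counts summed over the 4 libraries, plus 1, on a log axis for each of the 241 chromosome 19 ZNF genes in chromosome order, with filled points for the 172 members and open points for the 69 genes below the floor (dashed line). The shaded 28 consecutive genes have at most 3 counts each, by the rule that picked them. The nearest members on either side, ZNF486 and ZNF507, have 2196 and 4491.

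More members were higher than lower in VIRMA-overexpressing cells. The median log2 fold change was 0.31 (quartiles -0.02 and 0.52, range -0.76 to 1.43), with 125 members above 0 and 47 below, against a median of 0.02 over all 14974 genes tested. At an adjusted p below 0.05, 69 members (40.1%) were higher, where 32.5% of all genes tested were, and 17 (9.88%) were lower, where 33.1% of all genes tested were. The other 86 did not pass. The share of members that rose was thus near the background and the share that fell was below it. These shares were not taken at like depth, since the median of the mean count was 500 in members and 1295 over all genes tested. In the tertile of members with the highest mean count, 51.7% were higher and 15.5% lower. A log2 fold change beyond 1 was added as a second threshold, and 5 members passed both upward, namely ZNF285, ZNF550, ZNF841, ZNF333 and ZNF181, where 4.93% of all genes tested did. That count was 8 with upper-quartile factors, 10 with library totals and 2 under an RPKM filter, and 9 without control replicate 1, 11 without control replicate 2 and 9 without VIRMA replicate 1. None passed both downward in edgeR or DESeq2, where 3.59% of all genes tested did in edgeR, and the lowest member was at -0.76. Among the members, 93 had an unadjusted p below 0.05, of which 73 were higher and 20 lower. With library totals in place of TMM factors the counts at adjusted p were 88 higher and 9 lower.

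The median difference between the groups over members was larger than that between duplicates, which is no comparison within each member. The median absolute log2 difference over members was 0.159 between the control libraries, 0.119 between the VIRMA libraries and 0.369 between the group means. In 135 members the CPM of the groups did not overlap, 101 with VIRMA libraries higher and 34 lower, a share of 78.5% that lies near the 82.2% of all genes tested. The median CPM over the members was 5.17 and 5.19 in the control libraries and 6.03 and 6.21 in the VIRMA libraries. With 2 libraries a group an exact permutation test of a single value cannot go below p = 0.333. Only 5 members would have missed the floor had both groups been at the level of the lower group, of which 4 were higher in VIRMA libraries and 1 passed the adjusted p.

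The same direction was seen for zinc finger genes elsewhere but not for the rest of the chromosome. At an adjusted p below 0.05, 32.5% of all genes tested were higher and 33.1% lower. The 206 numbered ZNF genes on other chromosomes had a median log2 fold change of 0.25, with 103 higher (50%) and 26 lower (12.6%). By contrast, the 875 other chromosome 19 genes had a median of -0.13, with 209 higher (23.9%) and 415 lower (47.4%). The 9 chromosome 19 genes named ZNF with a letter had a median of 0.19, with 3 higher (33.3%) and 1 lower (11.1%). These are counts and medians over genes, which are not replicates, so the differences between gene classes were described and not tested.

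**Figure D2:**
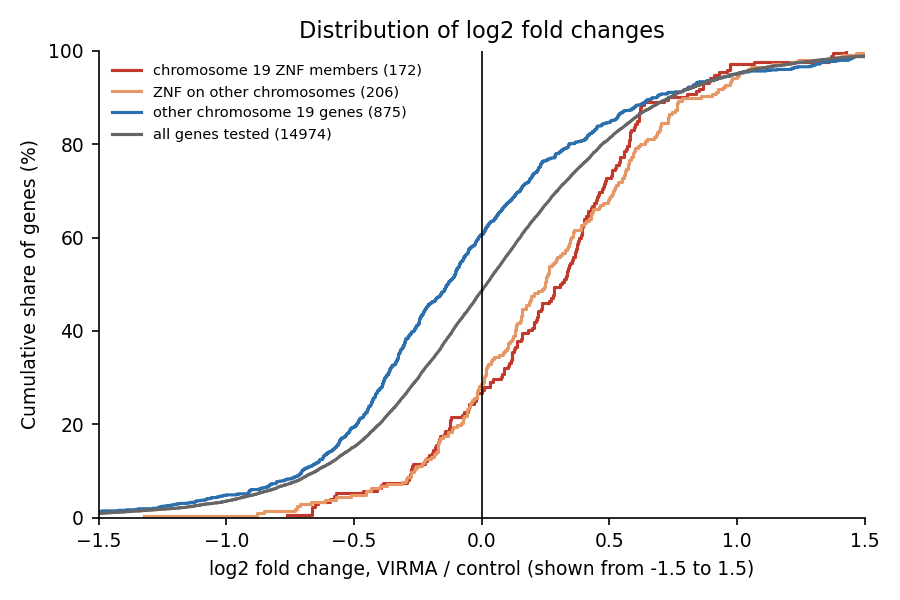
Cumulative share of genes against log2 fold change (VIRMA over control, edgeR) for the 172 members, 206 ZNF genes on other chromosomes, 875 other chromosome 19 genes and all 14974 genes tested, with the few genes beyond the axis limits not drawn. At the median the curves of both zinc finger classes lie to the right of all genes, at 0.31 and 0.25, the member curve crosses that of all genes in the upper tail, where 5 members lie above 1, and the curve of other chromosome 19 genes lies to the left, with a median of -0.13.

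The largest rises belonged to KRAB zinc finger genes expressed at low to moderate levels. This was not particular to them, since a KRAB domain was found in 142 of the 172 members. It was also found in ZNF551, ZNF607, ZNF132, ZNF584, ZNF792 and ZNF101, which were among the largest falls. ZNF841 (52064466 to 52095765, minus strand, 20 fingers) had 782 and 839 counts in the control libraries and 2296 and 2000 in the VIRMA libraries. These were 9.44 and 10.1 CPM against 26.6 and 23.8, and the groups lay far apart. ZNF841 rose 2.58-fold (log2 fold change 1.37, SE 0.0782, adjusted p = 3.70e-12). ZNF550 (57535257 to 57559863, minus strand, 8 fingers) behaved alike, with 603 and 573 counts against 1592 and 1536. Its CPM was 7.28 and 6.90 in control and 18.5 and 18.3 in VIRMA libraries, a 2.59-fold rise (log2 fold change 1.37, SE 0.0840, adjusted p = 1.08e-11). Both genes share part of their exons with a neighbour, and the neighbours moved less. ZNF841 shares 4.64% of its exonic length, with ZNF432, which starts next to it on the same strand and rose by a log2 fold change of 0.45. ZNF550 shares 9.30% of its exonic length with ZNF549, on the opposite strand, which had a log2 fold change of -0.28 and an adjusted p of 0.385.

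ZNF285 and ZNF333 had similar fold changes on far fewer counts. ZNF285 (44382298 to 44401608) had 60 and 57 counts in control and 189 and 135 in VIRMA libraries, so the VIRMA duplicates themselves differed, at 2.19 and 1.61 CPM. Its log2 fold change was 1.43 with the larger SE of 0.277 (adjusted p = 1.38e-04). ZNF333 (14689801 to 14733746) had 116 and 124 counts against 330 and 303, a log2 fold change of 1.36 (SE 0.192, adjusted p = 2.92e-06), and 11.8% of its exonic length overlaps ADGRE2 and ADGRE3. ZNF181 had 83 and 126 counts against 207 and 242, with a log2 fold change of 1.07 (SE 0.237, adjusted p = 5.46e-04), and leaving out 1 library moved this value between 0.80 and 1.397. The neighbours ZNF554 and ZNF555 both rose, by log2 fold changes of 0.97 and 0.97. ZNF490 rose by 0.96 on 31 to 80 counts a library, but 61.3% of its exonic length is shared with another annotated gene. Its adjusted p of 0.0167 was 0.0588 with DESeq2, 0.0917 without control replicate 2 and 0.156 without VIRMA replicate 2.

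The falls were smaller than the largest rises. ZNF551 (57681969 to 57717301, plus strand, 14 fingers) had 607 and 637 counts in control and 407 and 345 in VIRMA libraries, which were 7.33 and 7.67 CPM against 4.72 and 4.11. The groups did not overlap, and its log2 fold change was -0.76 (SE 0.125, adjusted p = 2.02e-05). ZNF296 (45071500 to 45076588, minus strand) had 3706 and 3934 counts against 2512 and 2675, or 44.7 and 47.4 CPM against 29.1 and 31.8. Its log2 fold change was -0.59 with an SE of 0.0548 (adjusted p = 6.77e-09), so this fall was measured more precisely than that of ZNF551. ZNF574 had 4137 and 3719 counts against 2666 and 2724, with a log2 fold change of -0.58 (SE 0.0559, adjusted p = 1.34e-08). ZNF607, ZNF132, ZNF584, ZNF792 and ZNF101 fell by 0.67, 0.66, 0.65, 0.64 and 0.57 on the log2 scale. Of these, ZNF792 had 138 and 133 counts against 89 and 89, and ZNF607 179 and 151 against 95 and 118, so their falls rest on few reads. The adjusted p of ZNF792 was 0.0506 with upper-quartile factors, 0.0693 with library totals, 0.0525 with DESeq2 and 0.0567 to 0.119 with any 1 library left out. That of ZNF607 was 0.115 without control replicate 1 and 0.173 without VIRMA replicate 1, and that of ZNF132 was 0.103 without control replicate 2, 0.0510 without VIRMA replicate 1 and 0.0521 without VIRMA replicate 2.

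**Figure D3:**
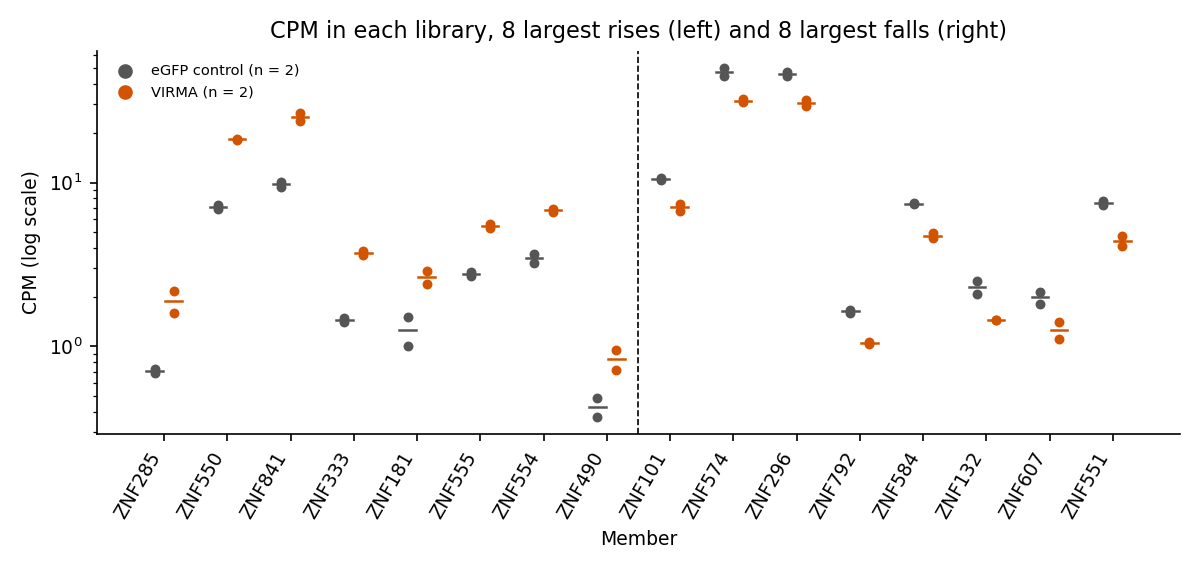
CPM in each library on a log axis for the 8 members with the largest rises (left of the dashed line) and the 8 with the largest falls (right), with 1 point per library and a bar at the mean of each group of 2. In all 16 members the control and VIRMA libraries do not overlap, which the rule that picked them required, and ZNF841 goes from 9.44 and 10.1 to 26.6 and 23.8 CPM.

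Some members with many counts differed little. ZNF428, ZNF579 and ZNF865 were picked as the 3 most counted that did not pass, and ZNF524 and ZNF787 for their RPKM. Other members with many counts changed more, among them ZNF146 by 0.60 and ZNF574 by -0.58 on the log2 scale. ZNF428 had 60.4 and 51.3 CPM in control and 56.1 and 55.5 in VIRMA libraries, so the VIRMA values lay between those of the controls, and its log2 fold change was 0.00 (SE 0.0558, adjusted p = 0.996). ZNF579 had 51.9 and 55.4 against 53.1 and 52.1 CPM, a log2 fold change of -0.03 (SE 0.0449, adjusted p = 0.585). ZNF865 had 41.8 and 38.9 against 36.3 and 38.1 CPM, a log2 fold change of -0.12 that did not pass (SE 0.0526, adjusted p = 0.0535) but did with DESeq2 size factors (0.0401), filterByExpr (0.0289), no filter (0.0397), and without control replicate 2 (0.0156) or VIRMA replicate 2 (0.0290). ZNF524 had 22.1 and 21.8 against 19.8 and 22.5 CPM and an adjusted p of 0.499. ZNF787, the member with the highest RPKM, had 119.9 and 126.9 against 106.0 and 117.6 CPM and fell by 0.14 on the log2 scale (adjusted p = 7.05e-03). Its adjusted p was 0.0999 with upper-quartile factors, 0.370 with library totals and 0.196 without VIRMA replicate 1.

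The members were divided by whether a KRAB domain was found. A protein search with a KRAB domain found one in 142 members and in the other 30 it found none, which does not exclude a divergent one. The 142 had a median log2 fold change of 0.34, with 60 higher and 8 lower, and the 30 a median of -0.02, with 9 higher and 9 lower. These are 42.3% higher and 5.63% lower among the 142 and 30% and 30% among the 30, where 32.5% and 33.1% of all genes tested were, and the difference between the 2 sets was described and not tested. The 30 also differed in other ways. Their median RPKM was 4.10 against 0.992, their median exonic length 3874 against 5078 bases, and their median number of fingers 8.5 against 12. Within the KRAB members the tertile with the highest mean count, which had 32 higher and 3 lower of 48, had a median of 0.37, the middle tertile, with 18 higher and 2 lower of 47, a median of 0.23, and the lowest, with 10 higher and 3 lower of 47, a median of 0.37. With other scaling the median of the 30 lay above 0, at 0.033 with upper-quartile factors and 0.077 with library totals, and it was 0.034 without VIRMA replicate 1, while it stayed below that of the 142 in each of these.

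Of the 30 members without a KRAB hit, 9 rose, 9 fell and 12 did not pass. Those that rose included ZNF146, which consists of little but fingers, with 3404 and 3819 counts in control and 5575 and 5659 in VIRMA libraries (log2 fold change 0.60, adjusted p = 1.35e-09). They also included ZNF260, with 653 and 800 counts against 1248 and 1197 (0.71), ZNF83, with 2060 and 2113 against 3252 and 3160 (0.58), and ZNF121, with 2050 and 2145 against 3166 and 3090 (0.54). The groups were well apart in each of these 4. ZNF358, ZNF507, ZNF134, ZNF329 and ZNF497 also rose, by 0.26 to 0.49. The 9 that fell were ZNF296, ZNF574, ZNF576, ZNF530, ZNF581, ZNF653, ZNF628, ZNF787 and ZNF444, with log2 fold changes between -0.59 and -0.12.

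**Figure D4:**
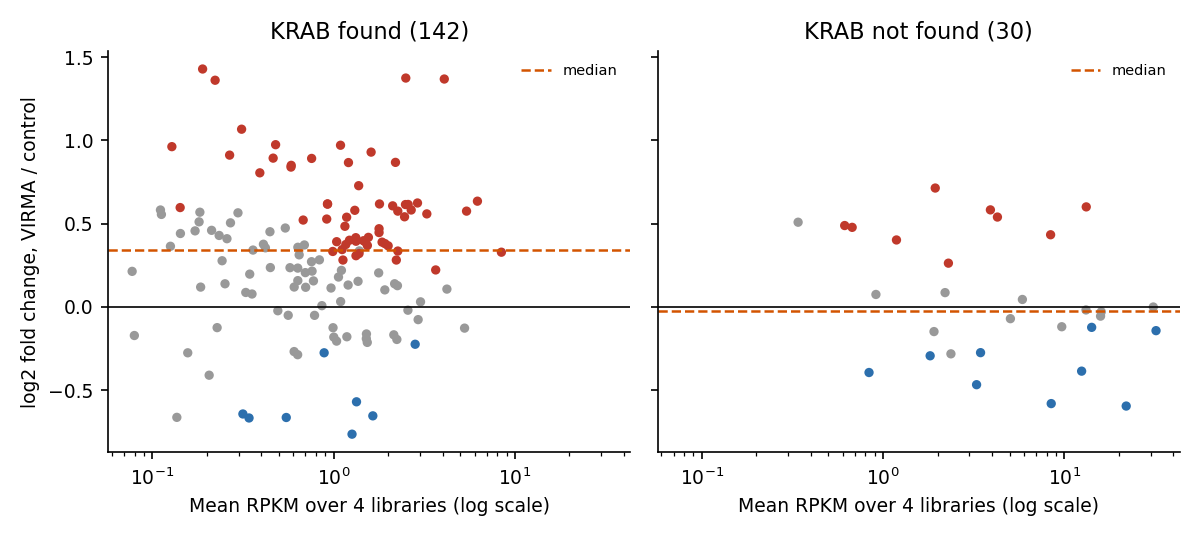
Log2 fold change (VIRMA over control) against mean RPKM over the 4 libraries on a log axis, for the 142 members with a KRAB domain found and the 30 without, coloured red where higher and blue where lower at an adjusted p below 0.05. The dashed medians are 0.34 and -0.02, and all 9 members above an RPKM of 10 are in the panel without KRAB.

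Members with a described role in silencing showed rises as well as values that did not pass. ZNF274, which binds the 3′ ends of zinc finger genes and recruits SETDB1 to them, had 1587 and 1573 counts in control and 2542 and 2455 in VIRMA libraries, a log2 fold change of 0.62 (SE 0.0608, adjusted p = 1.57e-08). The genes in the rest of this paragraph were chosen after their values were seen. ZNF587 and ZNF417, related genes that repress endogenous retroviruses of the HERV-K type, rose by 0.63 and 0.39. Of their 100-base words, 36.0% and 21.7% also occurred in another zinc finger gene, so reads could be split between copies. ZNF350, a partner of BRCA1, had 375 and 416 counts against 652 and 562 and rose by 0.58. ZNF224, a repressor of the aldolase A gene, rose by 0.62, with 40.5% of its exonic length shared with another annotated gene. ZNF93, which restrains LINE-1 elements, had 66 and 70 counts against 42 and 46, a log2 fold change of -0.66 that did not pass (adjusted p = 0.0729). ZNF808, which silences MER11 elements, had 695 and 791 against 961 and 797 counts (log2 fold change 0.20, adjusted p = 0.0911).

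Along the chromosome, 165 of the 172 members fell into 9 runs of at least 5 members whose starts lie within 1 Mb of the next. All 9 had a positive median log2 fold change, but the medians ranged from 0.05 to 0.81. For the counts by run, 32.5% of all genes tested were higher and 33.1% lower at an adjusted p below 0.05. The first, ZNF554 to ZNF77 (starts 2819874 to the gene ending at 2944971), had 5 members with a median of 0.58, 3 higher and 0 lower by edgeR, also at an unadjusted p below 0.05. The second (7069444 to 9793180) had 12 members with a median of 0.42, 8 higher and 0 lower (1 lower at an unadjusted p below 0.05), and the third (11483427 to 12640098) had 14 with a median of 0.38, 8 higher and 1 lower. The fourth (19668796 to 20200490), just before the stretch without counts, had 8 members with a median of 0.05, 1 higher (ZNF682, log2 fold change 0.89) and 1 lower (ZNF101). The fifth (34677639 to 34964049) had 5 members with the highest median, 0.81. It held ZNF302, with 291 and 424 counts in control and 698 and 640 in VIRMA libraries (log2 fold change 0.87), ZNF181 and ZNF30, which rose, and ZNF792, which fell. Members that rose and one that fell thus lay within 1 run.

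The later runs were larger. The sixth (36182060 to 37817300) had 13 members with a median of 0.31, 4 higher and 1 lower, and the seventh (43525497 to 45076588) had 21 with a median of 0.39, 8 higher and 2 lower. The eighth (51571298 to 53580269) had 34 members with a median of 0.29, and 16 were higher and 0 lower by edgeR, also at an unadjusted p below 0.05, with 8 members below 0. The ninth, at the end of the long arm (55476332 to 58481230), had 53 members, the most of any run, with a median of 0.10. Of these, 16 (30.2%) were higher and 10 (18.9%) lower, where 32.5% and 33.1% of all genes tested were. The ninth run held 10 of the 17 members that fell. Within it, the 39 KRAB members had a median of 0.14, with 13 higher (33.3%) and 5 lower (12.8%). The other 14 had a median of -0.12, with 3 higher (21.4%) and 5 lower (35.7%). Neighbours did not closely track each other. Over 156 pairs of adjacent members in these runs, Pearson's r of the log2 fold changes was 0.13 and Spearman's rho 0.13, values across genes that share libraries and, in places, reads. The 114 other genes inside these runs had a median log2 fold change of -0.01, with 29 higher and 42 lower, against -0.15 for the 761 outside them.

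**Figure D5:**
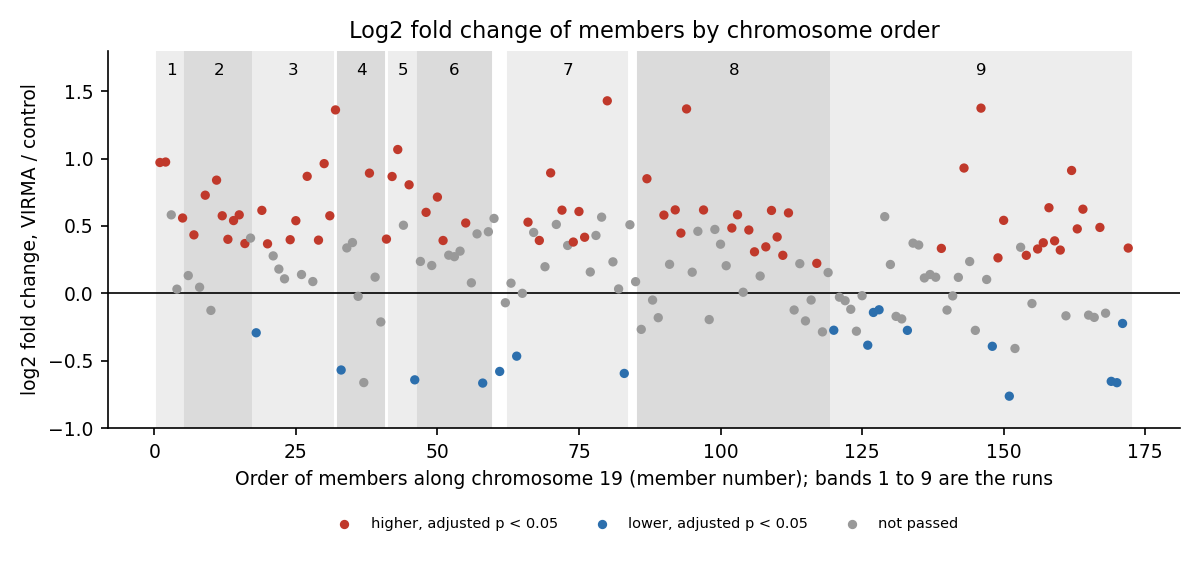
Log2 fold change (VIRMA over control) of the 172 members in chromosome order, with grey bands for the 9 runs and colours for members higher (red, 69), lower (blue, 17) or not passed (grey, 86) at an adjusted p below 0.05. Red points occur in all 9 bands, and 10 of the 17 blue points lie in band 9, the largest, with 53 members.

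Rank correlations of the change with measures of the gene were weak. Across the 172 members Spearman's rho with the log2 fold change was 0.19 for exonic length, -0.10 for mean count, 0.03 for the number of fingers and 0.04 for the density of GGACT, a form of the m6A consensus. The points share libraries, and genes are not independent replicates, so no p is given. By length, the shortest tertile (551 to 4204 bases) had a median log2 fold change of 0.24, with 16 higher and 8 lower, the middle tertile (4234 to 6161 bases) a median of 0.26, with 24 higher and 6 lower, and the longest tertile (6170 to 13007 bases) a median of 0.38, with 29 higher and 3 lower. The 78 members on the minus strand had a median of 0.38, with 38 higher (48.7%) and 6 lower (7.69%). The 94 on the plus strand had a median of 0.20, with 31 higher (33.0%) and 11 lower (11.7%). Exon sharing made little difference. The 76 members that share no exonic base with another annotated gene had a median of 0.30, with 29 higher (38.2%) and 9 lower (11.8%). The 96 that do had a median of 0.31, with 40 higher (41.7%) and 8 lower (8.33%). In 10 members over 25% of the exonic length was shared, and their values are uncertain because the strand setting of the counting is not stated.

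A set of 10 members was on the study's own lists of mRNAs with changed m6A peaks, made from cells of the same kind, so these lists are not independent evidence of direction. Of 7 with raised peaks, 6 were higher and 0 lower in edgeR, also at an unadjusted p below 0.05, with a median log2 fold change of 0.54. They were ZNF550, ZNF222 (0.89), ZNF44 (0.87), ZNF844 (0.54), ZNF432 (0.45) and ZNF426 (0.40), while ZNF549 did not pass. Among all members 40.1% were higher and 9.88% lower, and among all genes tested 32.5% and 33.1%. Whether peaks and levels are linked in these members was not tested. ZNF44 had 725 and 838 counts in control and 1361 and 1563 in VIRMA libraries (adjusted p = 8.03e-08), and ZNF222 had 47 and 61 against 104 and 102 (adjusted p = 0.0119, and 0.0765 without control replicate 1). Of 3 with lowered peaks, ZNF792 and ZNF574 fell and ZNF823 rose by 0.37, with an adjusted p of 0.0238 that was 0.107 without control replicate 2 and 0.182 without VIRMA replicate 1.

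Among the KRAB corepressor genes more fell than rose. All 31 genes of a list of TRIM28 and the proteins that act with it were tested, with a median log2 fold change of -0.19, and 18 were lower, 8 higher and 5 not passed, against 33.1% lower and 32.5% higher over all genes tested. The median was -0.092 with library totals in place of TMM factors. TRIM28, the scaffold itself, had 516 ± 6.43 CPM in control and 370 ± 9.47 in VIRMA libraries (SD, n = 2 each) and fell by 0.48 on the log2 scale (SE 0.0289, adjusted p = 8.87e-12). SETDB1, which methylates histone H3 for the complex, rose slightly, from 37.6 ± 0.199 to 43.2 ± 0.391 CPM (log2 fold change 0.20, adjusted p = 1.09e-03). The heterochromatin protein 1 genes CBX1, CBX3 and CBX5 fell by 0.56, 0.35 and 0.38.

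Of the 31 corepressor genes, 3 passed both thresholds downward, where 3.59% of all genes tested did. None passed both upward, where 4.93% of all genes tested did. UHRF1, which recruits the maintenance DNA methyltransferase to new DNA, fell from 54.0 ± 1.15 to 13.6 ± 0.0535 CPM (log2 fold change -1.99, SE 0.0557, adjusted p = 4.95e-17). DNMT1, that methyltransferase, fell from 127 ± 3.13 to 61.2 ± 0.0595 CPM (-1.06), and SUV39H1, a histone H3 methyltransferase, from 21.5 ± 1.64 to 9.97 ± 0.579 CPM (-1.11). The second gene of that pair, SUV39H2, fell by 0.58. EHMT2 fell by 0.27, while its partner EHMT1 rose by 0.19. Of the nucleosome remodelling and deacetylase subunits, CHD4, RBBP7, MTA2 and HDAC1 fell by 0.62, 0.88, 0.42 and 0.13, CHD3 and MTA1 rose by 0.14 and 0.15, and RBBP4 and HDAC2 did not pass (-0.03 and -0.04).

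Other members of the list were divided. In the HUSH complex and its partners, which silence retroelements, MPHOSPH8 rose by 0.50, PPHLN1 and MORC2 fell by 0.19 and 0.17, and FAM208A (TASOR) did not pass (-0.01, adjusted p = 0.859). The SETDB1 partner ATF7IP had a log2 fold change of 0.09 and did not pass (adjusted p = 0.221). The histone chaperone pair DAXX and ATRX moved in opposite directions, by -0.73 and 0.27. SUMO2, a small modifier joined to TRIM28 and other proteins, fell by 0.74. The remodeller SMARCAD1, which binds TRIM28, rose by 0.36, and of the relatives of TRIM28, TRIM33 rose by 0.44 and TRIM24 did not pass (0.05). With library totals, HDAC1, MORC2 and PPHLN1 no longer passed (adjusted p = 0.395, 0.163 and 0.143) and ATF7IP did (0.0123). With upper-quartile factors HDAC1 was at 0.0508 and ATF7IP at 0.0491. PPHLN1 was at 0.0775 without control replicate 2 and ATF7IP at 0.0206 without VIRMA replicate 2. Whether the levels of these genes bear on those of the members was not tested.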

How the data were processed

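The deposited file holds raw gene counts for 4 libraries. Per the study's methods and the labels, poly-A stranded 150-base paired-end reads were trimmed (Trimmomatic 0.39), aligned to hg38 with Ensembl annotation (STAR 2.5.2a) and counted by featureCounts. The strand setting and the treatment of multi-mapping reads are not given in the sources used here. The control columns carry the group in their names, and the other 2 columns were taken as the remaining group.

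Genes with a summed count of at least 200 were tested together with edgeR 4.0.16 (R 4.3.3, TMM factors 0.962 to 1.04, quasi-likelihood test on group alone, Benjamini-Hochberg adjustment over 14974 genes). The biological coefficient of variation was 4.55%. On simulated counts for these 14974 genes the fit recovered 99.5% of 200 genes changed by 1.5 on the log2 scale. That change was larger than the highest log2 fold change of a member, 1.43. Recovery of changes of the sizes seen in the members was not tested. KRAB domains and fingers were sought in GENCODE 44 transcripts (HMMER 3.4, E-value 0.001).

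Named members were the 8 largest rises and 8 largest falls at adjusted p below 0.05 with groups apart and a mean of at least 50 counts, the 5 highest RPKM, the 3 most counted that did not pass, 2 on each side of the floor, those in the study's m6A lists, ZNF274 and ZNF91. The members, lists and tests were chosen with earlier results of these data known. Alternatives were other scaling, filters, tools, a replicate block and each library left out. The value of 1 gene of the corepressor list is not reported here.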

Additional observations from a re-analysis of the deposited data

How the results depend on the processing

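The median log2 fold change of the members stayed positive in every alternative run. It was 0.302 with DESeq2 or its size factors, 0.366 with upper-quartile factors, 0.411 with library totals, 0.331 under the RPKM filter (100 members), 0.283 with filterByExpr, 0.292 without a filter, 0.327 with limma-voom and 0.267 at a floor of 500. In members with under 1% of their 100-base words shared, an alternative chosen after seeing the data, it was 0.282. Over the fits that left out 1 library it lay between 0.274 and 0.295. The median log2 ratio of CPM over members had an SD of 0.0136 across pairs of a control and a VIRMA library. These pairs share libraries, so they are not independent and the SD is no measure of precision. Upper-quartile factors and library totals moved the median of all genes by 0.056 and 0.100.

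The 17 lower members became 11 with upper-quartile factors and 9 with library totals, and 11 to 16 when 1 library was left out, with 11 without VIRMA replicate 1. Higher members numbered 61 to 66 in those fits. The 5 members higher past both thresholds became 8 with upper-quartile factors, 10 with library totals, 2 under the RPKM filter, 2 when tested against 2-fold, and 4 to 11 when 1 library was left out (9 without control replicate 1, 11 without control replicate 2, 9 without VIRMA replicate 1). Members with no shared exon gave 29 higher, 9 lower and 1 past both thresholds. Named members numbered 8 under the RPKM filter. The corepressor median was -0.136 with upper-quartile factors and -0.092 with library totals, and -0.235 to -0.168 when 1 library was left out. DESeq2 shared 61 of the 69 higher and 14 of the 17 lower members.

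Signs turned in some genes that had not passed. With upper-quartile factors the log2 fold change was 0.056 for ZNF428, 0.027 for ZNF579, 0.0013 for ZNF524, 0.042 for FAM208A, 0.016 for HDAC2 and 0.027 for RBBP4, and with library totals 0.099, 0.071, 0.045, 0.086, 0.061 and 0.071. It was 0.016 for ZNF428 and 0.0029 for FAM208A under the RPKM filter and 0.0045 for ZNF428 with limma-voom. Leaving out 1 library gave ranges of -0.11 to 0.12 for ZNF428, -0.075 to 0.019 for ZNF579, -0.15 to 0.035 for ZNF524, -0.0062 to 0.19 for ATF7IP, -0.62 to 0.0051 for ZNF549 and -0.054 to 0.028 for FAM208A. The cause was not tested.

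Replicate numbers did not pair the libraries (correlation of same-number deviations 0.037 over all genes tested and 0.082 over members). With the replicate block, 72 members were higher and 18 lower, which include the 69 and 17 called without the block, ZNF428 was at 0.0031 and ZNF865 passed (adjusted p = 0.0346). Genes with few counts limit the precision: 42 of the 57 members in the lowest tertile by mean count did not pass. Intervals and floors cover counting error only.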
